A study of Mus musculus with 6 samples.

Results

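The transcripts of mouse Tnf, its receptors and the proteins that act next to the receptors were followed in hTNFtg synovial fibroblasts (SFs) given amisulpride. The 10 genes were taken by name from the deposited table, namely Tnf, Tnfrsf1a, Tnfrsf1b, Traf1, Traf2, Ripk1, Ripk2, Birc2, Birc3 and Tnfaip3, and each had 1 entry among 49548 genes. SFs are the connective tissue cells of the joint lining, and these came from ankle joints of young adult mice on a mixed CBA and C57BL/6J background that carried a human TNF transgene (hTNFtg) and develop polyarthritis. The 3 untreated libraries were hTNFtg SFs with no treatment by the labels, where the study's methods speak of vehicle, and the 3 amisulpride libraries were hTNFtg SFs given 500 μM of the drug for 48 hours. Both groups carry the transgene, and no library from mice without it was used here. Amisulpride is an antipsychotic drug, known as an antagonist of dopamine and serotonin receptors. RNA was read from the 3′ end of transcripts, and values are normalised counts, that is reads per gene scaled by library and rounded.

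TNF is a cytokine that binds 2 receptors. TNFR1, the product of Tnfrsf1a, is found on nearly all cells and carries a death domain, whereas TNFR2, the product of Tnfrsf1b, has none and is found mostly on leukocytes and endothelium. Bound TNFR1 gathers an adaptor, the TRAF proteins, the kinase RIPK1 and the ubiquitin ligases cIAP1 and cIAP2, and the ubiquitin chains built there lead to NF-κB, which in turn raises genes of the same complex that keep it in check, A20 among them. In joint fibroblasts this route is known to drive chemokines and matrix-degrading enzymes.

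The promoters of 3 genes are shown because Tnf was the 1 member that passed the thresholds of the study, Traf1 came close, and Tnfaip3 is the classic NF-κB feedback gene. RefSeq promoters, on build GRCm38.p6 and running from 250 bases before to 50 bases after the start site, were found for 9 of the 10 members, in 12 windows, and Ripk2 had none. Each is written on the strand of its gene, and capitals mark matches on either strand to any of 3 motifs, the NF-κB decamer, the AP-1 motif TGANTCA and the TATA box TATAAA.
Tnf (chr17:35201958-35202257, minus strand): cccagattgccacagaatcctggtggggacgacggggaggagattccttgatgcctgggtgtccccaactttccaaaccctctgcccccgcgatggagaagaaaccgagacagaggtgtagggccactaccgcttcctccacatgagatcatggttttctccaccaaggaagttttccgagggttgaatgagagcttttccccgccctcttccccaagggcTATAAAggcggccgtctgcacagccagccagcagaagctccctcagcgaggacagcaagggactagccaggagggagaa
Traf1 (chr2:34961723-34962022, minus strand): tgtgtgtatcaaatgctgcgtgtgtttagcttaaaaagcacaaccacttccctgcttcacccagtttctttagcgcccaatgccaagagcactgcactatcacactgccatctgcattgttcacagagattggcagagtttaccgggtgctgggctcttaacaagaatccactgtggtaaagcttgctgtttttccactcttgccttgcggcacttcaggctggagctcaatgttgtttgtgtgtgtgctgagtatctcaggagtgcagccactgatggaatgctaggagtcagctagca
Tnfaip3 (chr10:19015361-19015660, minus strand): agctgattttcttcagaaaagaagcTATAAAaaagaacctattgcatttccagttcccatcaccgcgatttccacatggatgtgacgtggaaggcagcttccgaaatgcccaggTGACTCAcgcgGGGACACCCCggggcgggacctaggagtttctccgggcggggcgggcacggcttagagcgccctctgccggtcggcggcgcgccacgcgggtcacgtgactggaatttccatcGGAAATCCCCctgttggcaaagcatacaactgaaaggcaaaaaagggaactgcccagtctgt
The Tnf window held TATAAA, with its leading base at position -29, counted from the start site. The Traf1 window held none of the 3 motifs. In the Tnfaip3 window the NF-κB decamer matched at position -125 on both strands and at -12 on the opposite strand, TGANTCA matched at -136 and TATAAA at -225, and none of these matches overlapped another. The second window of Tnfaip3 and the windows of the other 6 members with an entry held no match. Of all 32817 promoter windows, 8.46% held the decamer, 7.81% TGANTCA and 13.62% TATAAA. A match of letters is a description of the window and was not tied to any value below.

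Untreated libraries held approximately 3.635 to 4.715 M reads and treated ones 2.518 to 4.401 M, with amisulpride replicate 3 the shallowest. That library also stood apart, at 73.9 on the leading principal component where the others lay between -38.2 and 10.4, and 3.79% of the 12614 genes tested were over 2 times as high in it as in any other library, against 0.07% to 0.63% in each of the others. All 11 SF markers were above 0 in every library, with summed normalised counts of 45001 to 60062 in untreated and 51967 to 91785 in treated SFs. Of 13 leukocyte markers, 11 were above 0 in every library and the T cell gene Cd3e and B cell gene Cd79a stood at 0 in all 6, with sums of 2747 to 5271 and 2589 to 4871. Endothelial markers summed to 15 or less.

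Among the 10 members, 1 passed the study thresholds, Tnf, which was lower in treated SFs. To pass, a gene had to change by 1 or more on the log2 scale, either way, at a p-value under 0.05 before adjustment, and 5.7% of all genes tested passed, 2.69% as higher and 3.01% as lower. With limma, 0 members had an adjusted p-value under 0.05 (0.285% of all genes tested), and 2, Tnf and Ripk2, had an unadjusted p-value under 0.05, both as lower, against 10.9% of all genes tested in either direction and 5.77% as lower. The same 2 genes were those whose groups did not overlap, and both were lower, where 8.66% of all genes tested were lower and 7.8% higher without overlap, 16.5% in all. The median log2 fold change was -0.21 over the 10 members, 8 of them lower, and 0.00 over all genes tested, 49.9% of which were lower. For 6 members the estimate lay within 0.3 of 0.

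**Figure D1:**
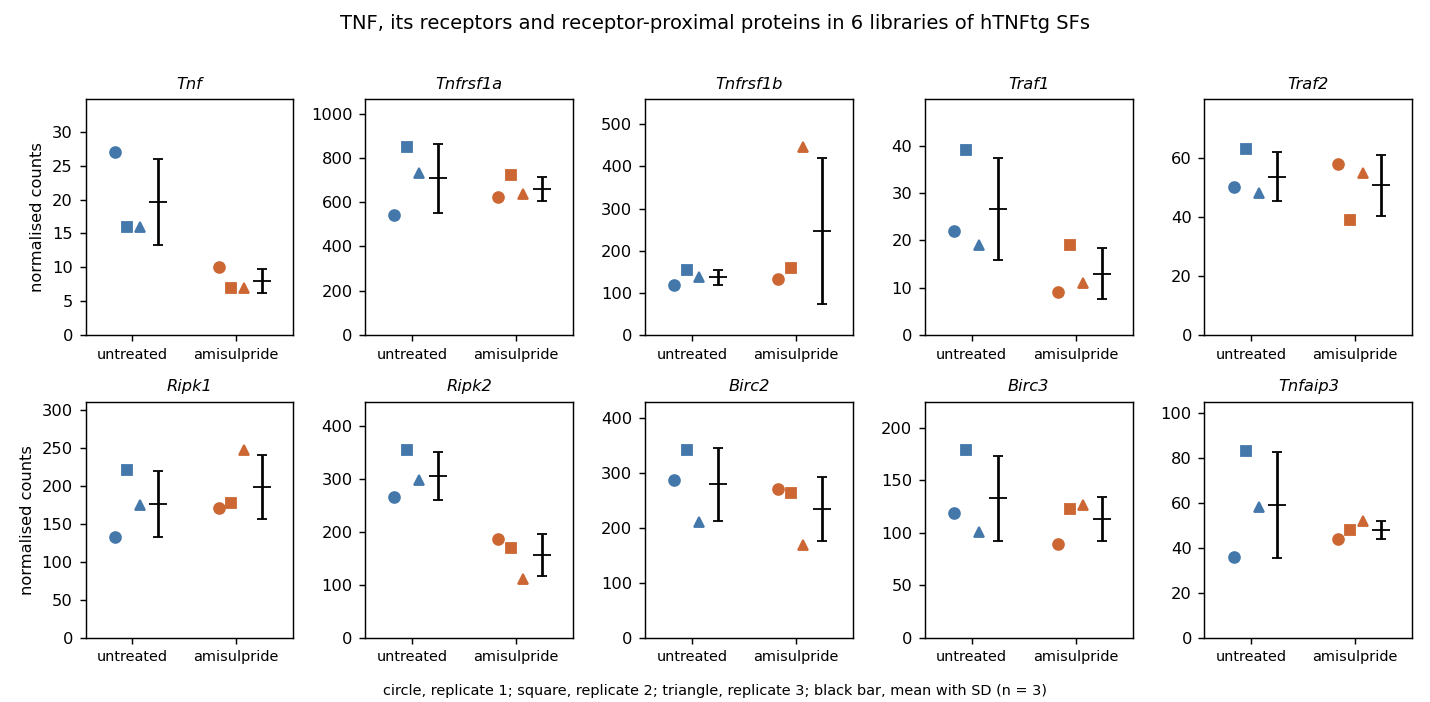
Normalised counts of the 10 members (y axes, each from 0) in untreated and amisulpride-treated hTNFtg SFs, with 1 symbol per replicate number and a bar for the mean ± SD (n = 3). Only Tnf and Ripk2 show no overlap between the groups, and Tnfrsf1b reaches 446 in 1 treated library.

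Mouse Tnf encodes the cytokine itself. Its gene (ENSMUSG00000024401) lies on chromosome 17, 35199381 to 35202007, minus strand, on build mm10 as do all positions below, and its normalised counts were 27, 16 and 16 in untreated replicates 1 to 3 and 10, 7 and 7 in treated ones. Every treated value lay below every untreated one. Replicate 1 was the highest in both groups, as it was for 4 of the 5 leukocyte markers plotted beside it. Among all genes tested, 36.7% had their highest untreated value in replicate 1. The share highest in replicate 1 of both groups was not counted, so nothing is read from the match. Of the other tested leukocyte markers, Lyz2 and Laptm5 were also highest in replicate 1 of both groups, and Cd68, Tyrobp and Fcer1g were not. The mean of Tnf went from 19.7 ± 6.35 to 8 ± 1.73 (SD, n = 3), and Tnf fell, with a log2 fold change of -1.17 ± 0.49 (SE here and below), a 95% interval of -2.24 to -0.11 and an adjusted p = 0.405 in limma. These values stand for approximately 28 reads at the highest and 4 at the lowest, and the value in amisulpride replicate 3, 7, was close to its floor of 5.37, which corresponds to 3 reads. The call held with the replicate number as a block and without amisulpride replicate 1 (-1.33). It was lost with any other library left out, with values of -0.93 without untreated replicate 1, -1.29 without untreated replicate 2 or 3, and -1.10 without amisulpride replicate 2 or 3, where the unadjusted p-value was no longer under 0.05, and with a pseudocount of 5 (-0.90), where the size was under 1. Tnf was lower in all 13 alternatives.

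The table lists genes of the mouse genome and has no entry for the human transgene. Reads from the transgene that mapped to mouse Tnf, if any, cannot be told apart from its own. The neighbouring cytokine genes Lta and Ltb were at 0 in all 6 libraries. Tnf is made mainly by leukocytes, and SF cultures had been depleted of CD45+ cells according to the study's methods. Of the leukocyte markers, 10 were tested and 2 passed the study thresholds, Cd14 and Csf1r, both lower, and 0 passed as higher, where 3.01% of all genes tested passed as lower and 2.69% as higher. Ptprc, which encodes CD45, had 38, 12 and 18 normalised counts in untreated libraries and 23, 5 and 5 in treated ones, a log2 fold change of -1.16 that did not pass. Cd14, a co-receptor for bacterial lipopolysaccharide on monocytes, had 121, 69 and 76 against 47, 25 and 13. Csf1r, the receptor for a macrophage growth factor, had 114, 93 and 76 against 41, 23 and 100, whereas Adgre1, which encodes the macrophage marker F4/80, had 39, 25 and 14 against 59, 43 and 32. Itgam, an integrin gene of myeloid cells, had 68, 22 and 22 against 42, 15 and 38. The other tested markers changed less and did not pass. Cd68 had a log2 fold change of 0.31, Lyz2 -0.14, Laptm5 -0.24, Tyrobp -0.34 and Fcer1g -0.46. The part of leukocyte transcripts in the fall of Tnf was not tested, and fewer cells of a type and less RNA per cell cannot be told apart in such bulk libraries.

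**Figure D2:**
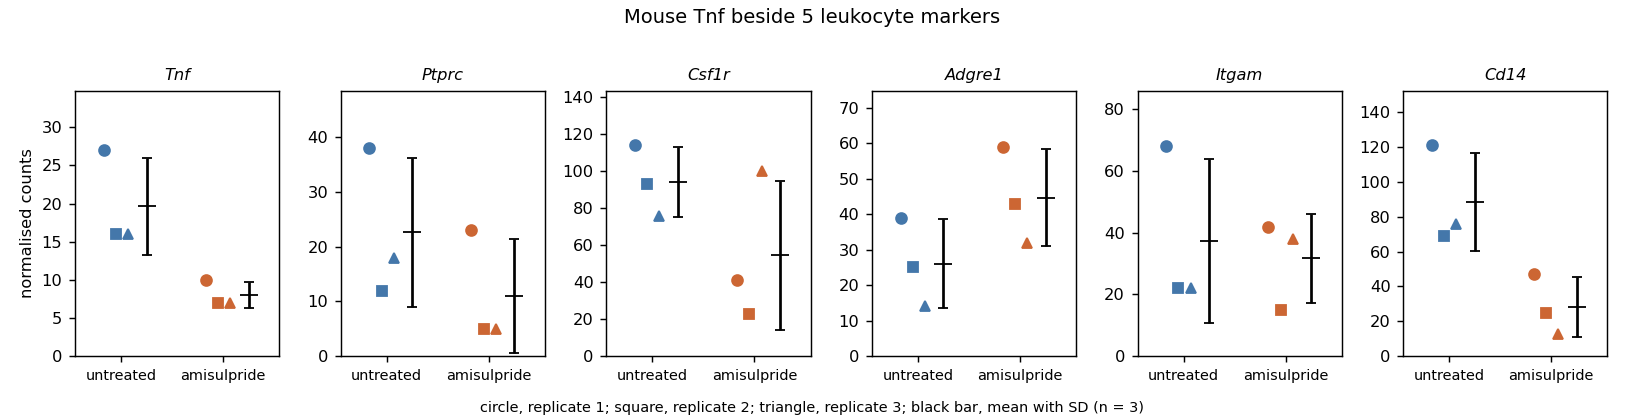
Normalised counts (y axes, each from 0) of mouse Tnf and of 5 leukocyte markers in the 6 libraries, with 1 symbol per replicate number and a bar for the mean ± SD (n = 3). The markers were taken in the order of the marker list, not by their level. Replicate 1 is the highest library in both groups for Tnf, Ptprc, Adgre1, Itgam and Cd14, but not for Csf1r, and Cd14 is lower in every treated library whereas Adgre1 is not lower in treated SFs.

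Neither receptor passed the thresholds. Tnfrsf1a (ENSMUSG00000030341, chromosome 6, 125349362 to 125362484, plus strand) had 542, 850 and 730 normalised counts in untreated libraries and 624, 723 and 635 in treated ones. The treated values all lay inside the untreated range. Its log2 fold change was -0.08 ± 0.25 (limma adjusted p = 0.933), with a 95% interval of -0.62 to 0.47. Its untreated mean was 707.3 ± 155 and its treated mean 660.7 ± 54.3 (SD, n = 3). Per kilobase of exon, Tnfrsf1a had the highest untreated level of the 10 members, at 273 normalised counts, followed by Ripk2 at 109, Birc2 at 61.0 and Tnfrsf1b at 35.9, and Traf1 had the lowest, at 3.02, although a 3′ kit does not make reads in proportion to length. The order differs without division by length. The lowest untreated mean was then that of Tnf, at 19.7, below Traf1 at 26.7, and Ripk1, at 175.7, lay above Tnfrsf1b, at 137.

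Tnfrsf1b (ENSMUSG00000028599, chromosome 4, 145213463 to 145246870, minus strand) had 119, 155 and 137 normalised counts in untreated libraries and 134, 159 and 446 in treated ones. Apart from amisulpride replicate 3, at 446, treated values did not leave the range of untreated ones by more than a few counts. The log2 fold change was 0.63 ± 0.40 (limma adjusted p = 0.609), with a 95% interval of -0.25 to 1.51, and was 0.10 without amisulpride replicate 3. Taken within each library, the log2 ratio of Tnfrsf1b to Tnfrsf1a was -2.18, -2.45 and -2.41 in untreated and -2.21, -2.18 and -0.51 in treated libraries. The ratio differed by 0.71 between the groups (exact permutation test, two-sided, p = 0.3, where 0.1 is the smallest p that 3 libraries against 3 can give), and by 0.15 without amisulpride replicate 3. That library was the one with an excess of genes far above all others. The leukocyte markers summed to 2684 in it, of which Lyz2 gave 1394, against 4871 and 2589 in the other treated libraries. In treated replicates 1 to 3, Csf1r had 41, 23 and 100, Cd68 219, 122 and 256, and Tyrobp 170, 74 and 181. These were highest in replicate 3, and the other tested leukocyte markers were not. The part of that excess of genes, or of leukocyte transcripts, in the value of Tnfrsf1b was not tested.

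The adaptors Traf1 and Traf2 bind the receptors or each other and bring the ubiquitin ligases to them. Traf1 (ENSMUSG00000026875, chromosome 2, 34941750 to 34961772, minus strand), itself a known NF-κB target, had 22, 39 and 19 normalised counts in untreated libraries and 9, 19 and 11 in treated ones. The groups met at 19, and the treated library was the lower of each replicate pair. The log2 fold change was -0.98 ± 0.47 (limma adjusted p = 0.487), with a 95% interval of -2.01 to 0.05. It passed both thresholds without amisulpride replicate 2 (-1.27) and in no other of the 13 alternatives. In amisulpride replicate 3 the value stood for approximately 6 reads.

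Traf2 (ENSMUSG00000026942, chromosome 2, 25517982 to 25546940, minus strand) had 50, 63 and 48 normalised counts against 58, 39 and 55 in treated SFs. The groups overlapped, and the log2 fold change was -0.09 ± 0.31 with a 95% interval of -0.76 to 0.58 (limma adjusted p = 0.934). The log2 ratio of Traf1 to Traf2 within a library was -1.15, -0.68 and -1.29 in untreated and -2.56, -1.0 and -2.22 in treated libraries. It differed by -0.89 between the groups, which overlapped at amisulpride replicate 2, and the exact permutation test gave a two-sided p of 0.3.

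Ripk1 and Ripk2 encode kinases of the same family. Ripk1 (ENSMUSG00000021408, chromosome 13, 34002363 to 34035170, plus strand), the kinase that sits on TNFR1 and steers between survival and cell death, had 133, 220 and 174 normalised counts in untreated libraries and 171, 177 and 247 in treated ones. The treated values overlapped the untreated range, and the log2 fold change was 0.18 ± 0.28 (limma adjusted p = 0.846), with a 95% interval of -0.43 to 0.80. Its 3′ end lies inside the pseudogene Gm17084 on the same strand, which had 26 to 54 normalised counts, so how reads were divided between both genes is uncertain. Its 5′ end is shared with Serpinb6a on the opposite strand, and whether the counting used strand is not given in the sources used here.

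Ripk2 (ENSMUSG00000041135, chromosome 4, 16122733 to 16163647, minus strand) encodes the kinase that carries signals from the bacterial sensors NOD1 and NOD2 rather than from TNFR1. It had 266, 356 and 299 normalised counts in untreated libraries and 187, 170 and 111 in treated ones. All 3 treated values lay below all 3 untreated values, with the lowest in amisulpride replicate 3. The mean was 307 ± 45.5 in untreated and 156 ± 39.9 in treated SFs (SD, n = 3). The log2 fold change of -1.0 ± 0.27 had a 95% interval of -1.60 to -0.39 and, before rounding, was just short of the threshold of 1. Its adjusted p = 0.183 in limma was the lowest of the members, and over the alternatives it ran from 0.0655, with the replicate block, to 0.521, without untreated replicate 3. Ripk2 passed both thresholds in 6 of 13 alternatives, among them without untreated replicate 1 (-1.09) or 3 (-1.01) and without amisulpride replicate 1 (-1.14) or 2 (-1.08), and did not without untreated replicate 2 (-0.88) or amisulpride replicate 3 (-0.77), where the size was under 1. Its unadjusted p-value stayed under 0.05 in all 13. The sensor Nod1 had 52, 52 and 24 normalised counts in untreated and 26, 39 and 16 in treated libraries, a log2 fold change of -0.65 (limma adjusted p = 0.638), and Nod2 stood at 0 to 4.

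Birc2 and Birc3 encode cIAP1 and cIAP2, ubiquitin ligases that modify RIPK1, and their genes lie next to each other on chromosome 9. Birc2 (ENSMUSG00000057367, 7818227 to 7837064, minus strand) had 286, 342 and 210 normalised counts in untreated libraries and 271, 264 and 168 in treated ones. It was lower in the treated library of every replicate pair, with groups that overlapped, and its log2 fold change was -0.26 ± 0.29 (95% interval -0.89 to 0.37, limma adjusted p = 0.785). Birc3 (ENSMUSG00000032000, 7848699 to 7873186, minus strand), the member of the pair known to be raised by NF-κB, had 119, 179 and 101 normalised counts in untreated libraries and 89, 123 and 127 in treated ones. Its groups overlapped too, with a log2 fold change of -0.21 ± 0.30 (95% interval -0.86 to 0.44, limma adjusted p = 0.837).

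The log2 ratio of Birc3 to Birc2 was -1.26, -0.93 and -1.05 in untreated and -1.6, -1.1 and -0.4 in treated libraries. The treated values spread on both sides of the untreated ones, and the means differed by 0.05 (exact permutation test, two-sided, p = 1). Of words of 25 bases in the last 300 bases of Birc3 transcripts, 5.42% were shared with other genes, most of them with the pseudogene Gm7019, which was at 0 in all 6 libraries. For the other 9 members the share was 0.5% or less, so Birc2 and Birc3 did not share read ends by this measure.

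Tnfaip3 (ENSMUSG00000019850, chromosome 10, 19000910 to 19015657, minus strand) encodes A20, which edits ubiquitin on RIPK1 and ends the NF-κB signal, and its promoter is the one printed above with matches to the NF-κB decamer. It had 36, 83 and 58 normalised counts in untreated libraries and 44, 48 and 52 in treated ones. The treated libraries lay close together, inside an untreated range that was wider. The log2 fold change was -0.22 ± 0.35 (limma adjusted p = 0.852), with a 95% interval of -0.98 to 0.55. Without untreated replicate 2 the estimate was 0.07, and without untreated replicate 1 it was -0.53. Tnfaip3 showed no detectable difference, at approximately 29 to 79 reads per library and with untreated values that ran from 36 to 83.

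The members also varied among untreated libraries. In 9 of 10, all but Tnf, untreated replicate 2 had the highest of the 3 untreated values, whereas 30.7% of all genes tested had their highest untreated value there. Without that library, Tnfrsf1a, Traf2, Birc3 and Tnfaip3 changed sign, to log2 fold changes of 0.07, 0.03, 0.03 and 0.07, none past the thresholds. The treated library was lower in all 3 replicate pairs for Tnf, Traf1, Ripk2 and Birc2, and was higher in all 3 for Tnfrsf1b. Some of these shifts were small on the log2 scale, at -0.08 for Birc2 in pair 1 and 0.17 and 0.04 for Tnfrsf1b in pairs 1 and 2. The share of all genes tested with such agreement was not counted, so nothing is read from it.

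**Figure D3:**
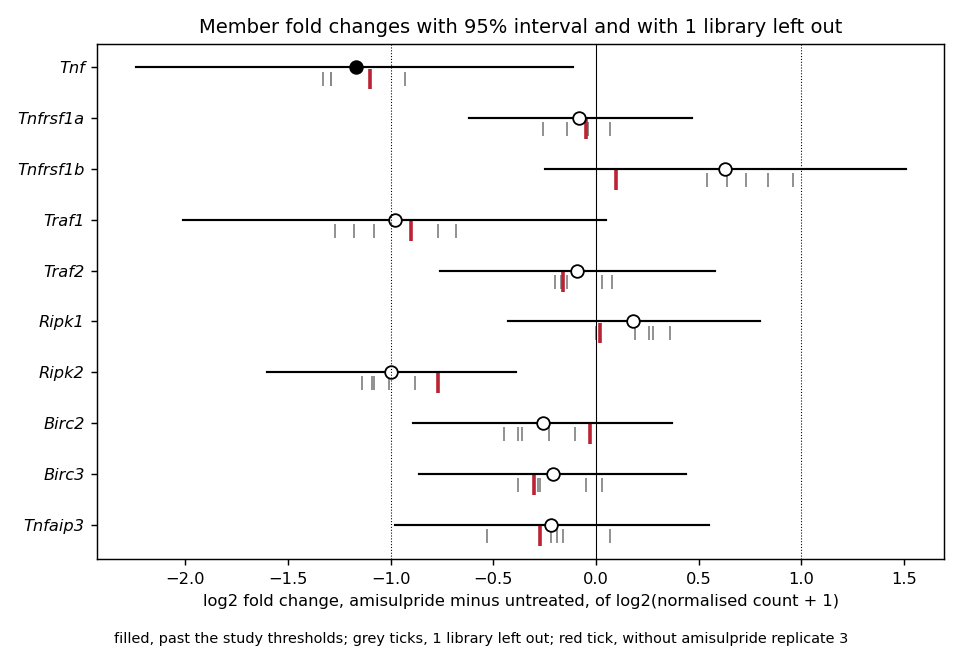
Log2 fold change of each member (x axis, treated minus untreated), with the 95% interval of limma as a line, ticks below for the estimates with 1 library left out, and dotted lines at the thresholds of -1 and 1. Only Tnf and Ripk2 have intervals that do not reach 0, and the estimate of Tnfrsf1b moves to 0.10 without amisulpride replicate 3 (red tick).

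The wider pathway was read from 99 other genes, grouped by role, of which 74 passed the filter on low values. Of these, 1 rose and 3 fell at the study thresholds, or 5.41%, against 5.7% of all genes tested. In limma, 0 had an adjusted p-value under 0.05, against 0.285% of all genes tested. An unadjusted p-value under 0.05 was found for 8 of the 74, where 10.9% of all genes tested had one. The median log2 fold change of the 74 was -0.04, with 35 higher and 39 lower. The share that passed was near that of all genes.

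Traf5, an adaptor of the TRAF family, fell from 39, 37 and 49 normalised counts to 18, 21 and 16, a log2 fold change of -1.14 ± 0.35 (limma adjusted p = 0.232). It passed the study thresholds in 12 of 13 alternatives, among them with any 1 library left out, and fell just short of the fold threshold with a pseudocount of 5 (-1.0). The other 10 genes of the complex I group, which holds Tradd, Traf3, Traf6 and the 3 subunits of the linear ubiquitin ligase Rnf31, Rbck1 and Sharpin, did not pass, with a group median of 0.02. Tank, which links TRAF proteins to the IKK-related kinases, fell from 248, 207 and 264 to 142, 111 and 106, a log2 fold change of -1.0 ± 0.25 (limma adjusted p = 0.14). It passed in 7 of 13 alternatives, and lost the fold threshold without untreated replicate 1 (-0.97) or 3 (-0.93), without amisulpride replicate 2 (-0.95) or 3 (-0.92), with a pseudocount of 5 (-0.98) and with library weights (-0.96). In that group of 11 tested TAK1 and IKK kinases and partners, the kinase genes Map3k7, Chuk, Ikbkb and Ikbkg had log2 fold changes of -0.33, 0.41, -0.25 and 0.09, and the median was -0.10. Tab2 had 504 to 602 normalised counts in untreated libraries and 577, 431 and 2750 in treated ones, the last in amisulpride replicate 3.

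Among 14 tested other TNF receptor superfamily members, 1 rose and 1 fell, or 14.3%, against 5.7% of all genes tested. Cd40, a receptor best known from antigen-presenting cells, rose from 13, 6 and 4 normalised counts to 32, 27 and 9, a log2 fold change of 1.41 ± 0.62 (limma adjusted p = 0.438). The groups overlapped, with 9 in 1 treated and 13 in 1 untreated library, and it no longer passed without untreated replicate 2 (1.33) or 3 (1.08) or without amisulpride replicate 1 (1.09) or 2 (1.2). Tnfrsf11b, which encodes osteoprotegerin, the decoy receptor for RANKL, fell from 41, 83 and 59 to 32, 50 and 7, a log2 fold change of -1.32 ± 0.59 (limma adjusted p = 0.454). The value of 7, in amisulpride replicate 3, was close to the floor of that library, 5.37, as was the lowest Cd40 value, 4 in untreated replicate 3, to its floor of 2.5. Tnfrsf11b was less stable than its estimate alone shows. It did not pass without untreated replicate 1 (-1.58), 2 (-1.08) or 3 (-1.32), without amisulpride replicate 3 (-0.54) or with library weights (-0.94), and passed in the other 8 of 13 alternatives. Tnfrsf12a, the receptor for TWEAK, had 240, 237 and 243 normalised counts against 144, 106 and 123, a log2 fold change of -0.95 ± 0.24 (limma adjusted p = 0.144) that fell short of the fold threshold except without amisulpride replicate 1 (-1.06). In the other direction, Tnfrsf22 had 18, 25 and 33 normalised counts against 37, 48 and 68, without overlap. Its log2 fold change of 0.98 ± 0.37 (limma adjusted p = 0.35) also fell short. Of 6 tested other ligands of the superfamily 0 passed, and the one with the lowest p was Tnfsf11, which encodes RANKL (-0.94, limma adjusted p = 0.557).

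No tested gene of ligand release and mRNA decay, of the feedback proteins, of the death complex or of the NOD pathway passed the study thresholds. Timp3, which inhibits the TNF-releasing protease ADAM17, had 2464, 3313 and 2047 normalised counts in untreated and 5848, 5485 and 4105 in treated libraries, without overlap, a log2 fold change of 0.99 ± 0.28 (limma adjusted p = 0.197). It passed in 3 of 13 alternatives, when untreated replicate 2 was left out (1.18) or amisulpride replicate 3 (1.15) and with library weights (1.09). Adam17 itself had 750 to 846 against 787, 751 and 446, a log2 fold change of -0.33 ± 0.27. Cyld, a deubiquitinase that restrains the same route, had 461, 419 and 406 against 337, 284 and 285, a log2 fold change of -0.51 ± 0.23 (limma adjusted p = 0.454). In the death complex, Fadd, Casp8, Cflar, Ripk3 and Mlkl had log2 fold changes of 0.25, -0.22, -0.19, -0.47 and -0.33, and their groups overlapped.

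**Figure D4:**
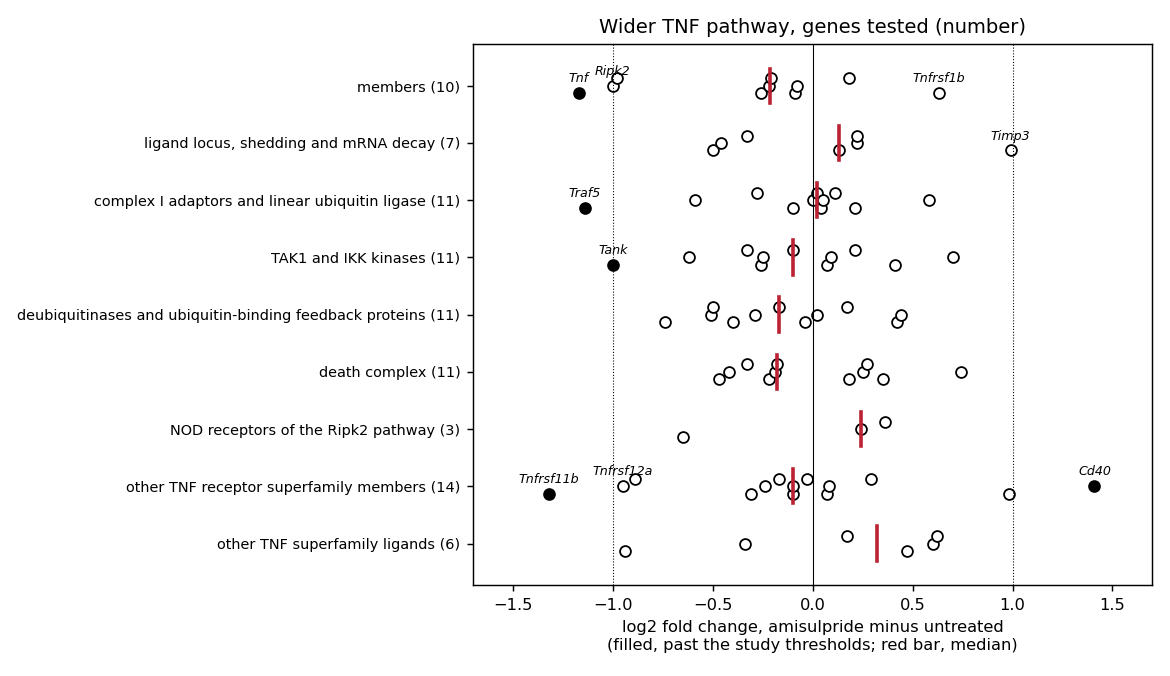
Log2 fold changes (x axis, treated minus untreated) of the members and of the 74 tested genes of the wider pathway by role, with filled points for genes past the study thresholds and a bar for each median. Most points lie between the dotted lines at -1 and 1, and group medians range from -0.21 to 0.32.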

How the data were processed

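The data are 3′ mRNA libraries (QuantSeq, Ion Proton) of cultured hTNFtg SFs, 3 untreated and 3 given amisulpride. The authors mapped reads to mm10 with TopHat2 and Bowtie2, counted them per gene with GenomicRanges, normalised the counts and tested them with DESeq, all through metaseqr. Versions and the method of normalisation are not given in the sources used here. The deposited values are a score, that is, normalised counts rounded to whole numbers, and their low values step as counts divided by a single factor for each library would. The deposited fold changes and p-values were not used, nor were 12 columns of the same libraries on other scales.

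Groups were compared with limma 3.58.1 (R 4.3.3) on log2(normalised count + 1), two-sided, with variance moderated along its trend with the mean (prior degrees of freedom 7.31), over the 12614 genes with at least 10 in at least 3 of 6 libraries. All 10 members passed this filter. Tnf and Traf1 had at least 10 in all 3 untreated libraries but not in all 3 treated ones. Treated values were 10, 7 and 7 for Tnf and 9, 19 and 11 for Traf1, so neither would have passed on those alone. P-values were adjusted by Benjamini-Hochberg over all genes tested. The scale understates changes of low genes. No count test was run, since reads are recovered only approximately, from the steps that rounding leaves in low values (checked on simulated data). The step of untreated replicate 1 is uncertain. Depths and floors of 3 reads cover counting error only. The limma code was tested on simulated data.

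Same-numbered libraries deviated together from their group means (correlations of 0.229, 0.24 and 0.201 over 12614 genes), so replicate pairs were described by number. The pairing rests on the data, since the labels give only numbers. It was not used in the main comparison or the permutation tests, which compared the groups unpaired, and entered only as the replicate block among the alternatives. The study's methods call the replicates biological, but no label says that they came from separate animals or cultures, so p-values measure only the spread between these libraries, which may be technical.

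The members and lists were chosen with earlier results of these data known. Named genes are all members and, of the wider lists, each gene past the study thresholds and the 1 with the lowest p per group. Other genes given with values were chosen after their values were seen. Alternatives were pseudocounts of 5 and 0.5, no filter, quantile normalisation, upper quartile rescaling, library weights, the replicate block and each library left out.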

Additional observations from a re-analysis of the deposited data

How the results depend on the processing

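Of 260 values of the 20 named genes under 13 alternatives, 221 stayed as they were in sign and call, 22 no longer passed the thresholds, 11 newly passed them and 6 turned in sign. The number of members past the study thresholds, 1 in the main comparison, was 0 with a pseudocount of 5, 2 with quantile normalisation, 2 with upper quartile rescaling and 0 to 2 with 1 library left out. No member had an adjusted p-value under 0.05 in limma in any of the 13 alternatives, and 2 to 4 members had groups that did not overlap with 1 library left out, where 23.8% to 29.7% of all genes tested did not, against 2 members and 16.5% with all libraries. The wider pathway genes past the thresholds numbered 4 in the main comparison. They numbered 6 without a filter, 2 with a pseudocount of 5, 3 with library weights and 2 to 5 with 1 library left out. With 1 library left out, signs turned for Ripk1 (0.00 without untreated replicate 1, up to 0.36), Tnfrsf1a (-0.26 to 0.07, the latter without untreated replicate 2), Traf2 (-0.20 to 0.08, with 0.03 without untreated replicate 2 and 0.08 without amisulpride replicate 2), Birc3 (-0.38 to 0.03) and Tnfaip3 (-0.53 to 0.07), both at their highest without untreated replicate 2, and the ratio of Birc3 to Birc2 ranged from -0.27 without amisulpride replicate 3 to 0.33 without amisulpride replicate 1 and was -0.04 without untreated replicate 1. The cause was not tested. The replicate block changed no call of a named gene, with 1 member and 4 wider pathway genes past the thresholds, while over all genes it moved the count with an adjusted p-value under 0.05 from 36 to 263, where the other alternatives gave 0 to 195. Without a filter 1313 genes passed the study thresholds, against 719. Among the members, depth limits Tnf and Traf1 most, at 4 to 28 and 6 to 37 approximate reads per library. Of the wider genes that passed, Cd40 and Tnfrsf11b also held values close to the floor.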
